A study of Mus musculus with 10 samples.

Results

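The core and naive pluripotency factors examined here are 10 genes: Nanog, Pou5f1, Sox2, Sall4, Esrrb, Tfcp2l1, Zfp42, Tbx3, Prdm14 and Dppa3. They were chosen by name, and each was taken from the table by its Ensembl gene identifier, with the row of highest mean kept if a symbol had more than 1. All 10 were among the 20206 genes listed and among the 14354 genes tested. Between embryonic stem cell (ESC) lines from protein-restricted and control mothers, none of the 10 passed adjustment over all genes tested. Prdm14 was the nearest, at 213 ± 85.8 (SD, n = 5) against 322 ± 59.8 (SD, n = 5) normalized units, and 4 of its 5 LPD lines lay below every NPD line. By SD pooled over the diets, Dppa3 and Prdm14 varied most among lines of the same diet, Prdm14 mainly among LPD lines.

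RNA was sequenced from 10 wild-type C57BL/6 mouse ESC lines, and the question was whether the mother's diet left a trace in undifferentiated cells. The mothers, aged 7 to 9 weeks at mating, were fed low protein diet (LPD, 9% casein) or normal protein diet (NPD, 18% casein) until embryonic day 3.5, when blastocysts were collected. The lines are named here LPD 1, 4, 6, 20 and 40 and NPD 8, 15, 21, 36 and 51, all were labelled male, and each had a mother of its own. They were derived on layers of embryonic fibroblasts in medium with leukaemia inhibitory factor (LIF) and serum replacement, and the cells taken for RNA were grown without fibroblasts, as the methods state. Each line is 1 replicate, so p-values measure the spread between lines. Each value is a normalized estimated count per gene, called units below.

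Pou5f1 (Oct4), Sox2 and Nanog are transcription factors that bind together at enhancers of pluripotency genes, their own included, and Sall4 works closely with them. Esrrb, Tfcp2l1, Tbx3, Prdm14 and others form the naive layer, which LIF signalling through Stat3 sustains and signalling by fibroblast growth factor (FGF) through the kinase ERK counteracts. In mouse ESC cultures Nanog, Esrrb, Prdm14, Zfp42 (Rex1) and Dppa3 (Stella) are known to vary from cell to cell. In bulk RNA, fewer cells expressing a gene and less RNA per cell cannot be told apart.

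Promoter windows of RefSeq (GRCm38.p6, 250 bases before to 50 after a start site) were matched by symbol for 6 of the 10 genes, Nanog, Pou5f1, Sox2, Esrrb, Tfcp2l1 and Zfp42, with 9 windows in all. The rule did not use sequence, so the windows were searched on both strands for the motif ATGCAAA, the core of the site that Oct4 binds, and for CATTGT, which Sox factors bind. ATGCAAA was found in 4 of the 9 windows, 2 of them overlapping windows of Nanog and the others those of Sox2 and Zfp42, and in 4.63% of all 32851 windows. CATTGT was found in 4 of the 9, which are both Nanog windows and 1 each of Pou5f1 and Esrrb, and in 12.6% of all. The composite of CATTGT, 1 base and ATGCAAA, which contains both motifs, was found in 2 windows of the 32851, and both belong to Nanog. AAGGTCA, which Esrrb binds, was in none of the 9 and in 4.72% of all, and GGGTGTG, a Klf site, was in 2 of the 9 (Zfp42 and Esrrb) and in 7.95% of all. A match is a description of letters and was not tested for binding. The 250 bases before the start site are shown for Nanog (chr6:122707239-122707488, plus strand), Sox2 (chr3:34649745-34649994, plus strand) and Zfp42 (chr8:43307010-43307259, minus strand), because these are the genes with the Oct4 motif in their window. All are written 5′ to 3′ on the gene's strand. In Nanog the capitals mark the composite site on the opposite strand, at positions -75 to -62 from the start site. In Sox2 they mark ATGCAAA at -99 to -93, and in Zfp42 they mark ATGCAAA at -185 to -179 and GGGTGTG at -74 to -68, both on the opposite strand.
Nanog: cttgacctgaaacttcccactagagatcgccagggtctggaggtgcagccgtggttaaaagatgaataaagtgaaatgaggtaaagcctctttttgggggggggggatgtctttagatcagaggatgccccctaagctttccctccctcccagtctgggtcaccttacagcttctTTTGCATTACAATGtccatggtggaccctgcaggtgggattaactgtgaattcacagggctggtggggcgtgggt
Sox2: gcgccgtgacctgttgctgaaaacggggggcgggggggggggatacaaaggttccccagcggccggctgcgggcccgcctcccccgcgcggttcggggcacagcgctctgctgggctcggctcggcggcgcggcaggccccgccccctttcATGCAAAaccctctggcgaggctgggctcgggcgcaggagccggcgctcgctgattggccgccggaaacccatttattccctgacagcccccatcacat
Zfp42: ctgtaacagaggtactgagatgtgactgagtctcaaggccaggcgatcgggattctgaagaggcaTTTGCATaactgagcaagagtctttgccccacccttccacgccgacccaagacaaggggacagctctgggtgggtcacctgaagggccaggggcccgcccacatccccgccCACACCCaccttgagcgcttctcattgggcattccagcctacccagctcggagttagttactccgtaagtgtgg

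Normalized totals were alike, between 16398672 and 18324979 units per line, but depth was not. Read equivalents (the total divided by what 1 read was worth) ranged from 5855259 to 24225238 in LPD lines (median 12321564) and from 20347334 to 23175472 in NPD lines (median 22190494), with LPD line 4 the shallowest. Every member still rested on at least 44.8 read equivalents in every line, the least being Dppa3 in LPD line 4. Pou5f1, Dppa5a, Tdgf1, L1td1, Utf1, Trim71 and other ESC genes were abundant in all lines, and the 12 non-member ESC markers summed to between 74464 and 104051 units. Of 12 embryonic fibroblast markers, 9 passed the filter. All 12 summed to between 395 and 4064 units in LPD lines and between 478 and 6905 in NPD lines, highest in NPD line 15, where Col1a1 was 2709. The Y-linked gene Ddx3y had 7.70 units in NPD line 15 and 174 in LPD line 4, against 1110 to 1493 in the other lines, and 334 X-linked genes had a median 0.49 above the 10-line median (log2) in NPD line 15. Kdm5d, also Y-linked, had 121 units in NPD line 15 and 342 in LPD line 4, against 612 to 720.5 in the other lines. NPD line 15 goes against its male label by these values and LPD line 4 stands apart.

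The core trio was compared first. Pou5f1, the POU-domain factor Oct4 (ENSMUSG00000024406, GRCm38 chromosome 17, 35506018 to 35510772), had 22773, 21999.9, 18250, 26431 and 30419.9 units in LPD lines 1, 4, 6, 20 and 40 and 20172, 23763, 27675, 22177 and 26757 in NPD lines 8, 15, 21, 36 and 51. The highest and the lowest value were both in LPD lines, and the groups overlapped throughout. The log2 fold change of LPD against NPD was -0.02 (SE 0.14), with a 95% interval of -0.32 to 0.28 (exact permutation test, two-sided, p = 0.905). Its sign turned in 4 of the 10 fits that left out 1 line, as given in the closing section.

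Sox2, the HMG-box partner of Oct4 (ENSMUSG00000074637, chromosome 3, 34650405 to 34652461), had 9110.2, 7989.8, 8291, 7481 and 9049 units in the LPD lines, in the same order, and 9734, 10969, 9458, 8226 and 8507 in the NPD lines. LPD lines 4 and 20 lay below every NPD line, and the other LPD lines lay within the NPD range. The log2 fold change was -0.16 (SE 0.10), with a 95% interval of -0.37 to 0.05 (exact permutation test, p = 0.127). It was -0.10 with NPD line 15 left out and -0.08 with LPD line 4 left out as well.

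Nanog, the homeobox factor that stabilizes self-renewal (ENSMUSG00000012396, chromosome 6, 122707489 to 122714633), had 7550.3, 7929, 8306, 5141 and 10168 units in the LPD lines and 7334, 9145, 11571, 6435 and 8774 in the NPD lines. LPD line 20 was the lowest of the 10 and NPD line 21 the highest, a 2.25-fold span. The log2 fold change was -0.15 (SE 0.18), with a 95% interval of -0.55 to 0.24 (p = 0.524 by exact permutation), and the value was -0.01 when LPD line 20 was left out. Relative to Pou5f1 within the same line, Nanog stood at 0.335 ± 0.093 (SD, n = 5) in LPD lines against 0.357 ± 0.050 (SD, n = 5) in NPD lines. This ratio was picked after the values were seen, and it was lowest in LPD line 20, at 0.194 (difference between diets, exact permutation test, p = 0.651). Sox2 relative to Pou5f1 stood at 0.360 in LPD lines against 0.395 in NPD lines (exact permutation test, p = 0.444). The paper reported a lower NANOG to OCT4 ratio in LPD blastocyst outgrowths, counted as stained cells and not as RNA. By qRT-PCR it reported equivalent Nanog, Oct4 and Sox2 in established lines of the 2 diets.

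Sall4, a zinc finger factor that binds with Oct4 (ENSMUSG00000027547, chromosome 2, 168748332 to 168767943), ran from 4206 to 6539 units in LPD lines and from 4915 to 5852 in NPD lines. Both ends of the range, LPD lines 1 and 20, were again LPD lines. The log2 fold change was -0.08 (SE 0.11; p = 0.532 by exact permutation), and 0.00 when LPD line 1 was left out. Sall4 shares 9.50% of its exonic bases with a gene on the opposite strand and Pou5f1 shares 14.1%. Whether the counting used strand is not given in the sources used here, so such reads cannot be assigned with certainty, nor can reads from processed copies of Nanog and Pou5f1.

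**Figure D1:**
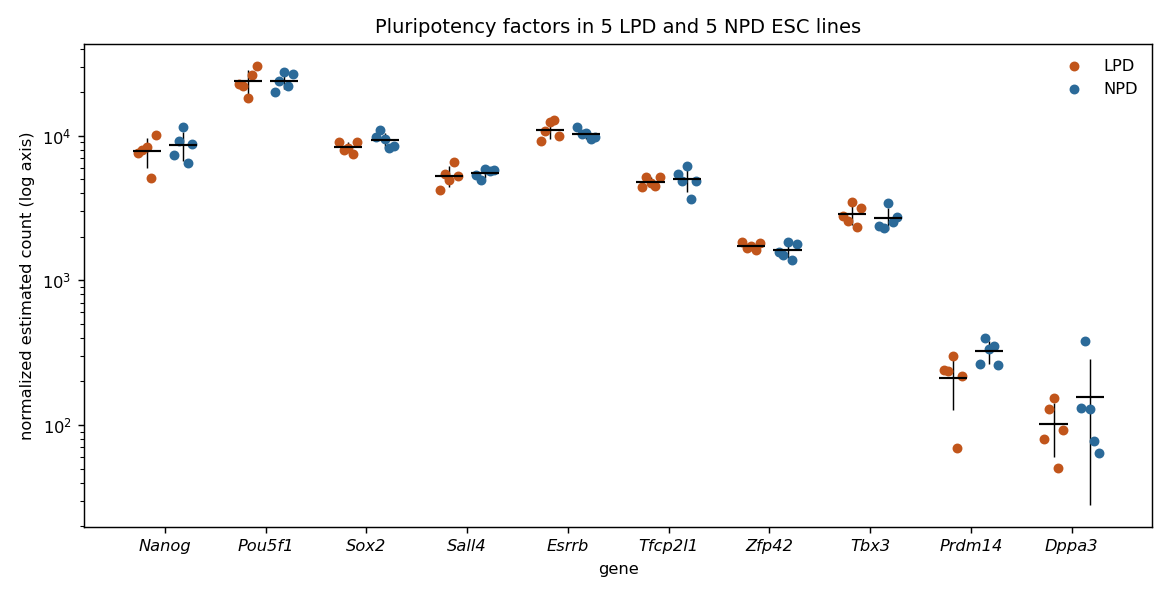
Normalized estimated counts (log axis) of the 10 genes, 1 point per ESC line, LPD in orange and NPD in blue, with horizontal lines at group means and vertical lines of 1 SD. The diets overlap in all 10 genes, and LPD line 20 (Prdm14, 69.2 units) and NPD line 15 (Dppa3, 379 units) stand away from their groups.

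Of the naive layer, Esrrb, an orphan nuclear receptor (ENSMUSG00000021255, chromosome 12, 86361117 to 86521628), had 9260.1, 10775, 12454, 12799 and 9968 units in the LPD lines and 11480.2, 10279.9, 10491, 9432 and 9828 in the NPD lines. LPD lines 6 and 20 lay above every NPD line and LPD line 1 below. The log2 fold change was 0.09 (SE 0.10), with a 95% interval of -0.13 to 0.31 (p = 0.381 by exact permutation), and 0.04 when LPD line 20 was left out. Tfcp2l1, a target of Stat3 that maintains the naive state (ENSMUSG00000026380, chromosome 1, 118627945 to 118685168), ran from 4412 to 5219 units in LPD and from 3668 to 6151 in NPD, so that every LPD line lay inside the NPD range. Its log2 fold change was -0.04 (SE 0.12; p = 0.762 by exact permutation), and 0.04 with NPD line 21 left out.

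Tbx3, a T-box factor downstream of LIF (ENSMUSG00000018604, chromosome 5, 119670669 to 119684724), ran from 2345 to 3478 units in LPD and from 2312 to 3456 in NPD, ranges that nearly coincide (log2 fold change 0.10, SE 0.13; p = 0.452 by exact permutation). Leaving out LPD line 6 gave 0.03, and leaving out NPD line 21 gave 0.20. Zfp42, the zinc finger marker Rex1 (ENSMUSG00000051176, chromosome 8, 43295063 to 43306980), had 1851, 1674, 1729, 1631 and 1800.3 units in the LPD lines and 1564, 1506, 1829.7, 1391 and 1773 in the NPD lines. It was the steadiest of the 10, with a 1.33-fold span over all lines and a log2 fold change of 0.11 (SE 0.09; exact permutation test, p = 0.206), which was 0.06 when NPD line 36 was left out.

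Prdm14, a PR-domain factor that represses genes of FGF signalling and of DNA methylation in naive cells (ENSMUSG00000042414, chromosome 1, 13113457 to 13127163), was far less abundant. It had 242, 236, 299, 69.2 and 217 units in LPD lines 1, 4, 6, 20 and 40 and 265, 401, 336, 350.5 and 259.7 in NPD lines 8, 15, 21, 36 and 51. LPD lines 1, 4, 20 and 40 lay below every NPD line, and LPD line 6 lay within the NPD range. The log2 fold change was -0.73 (SE 0.33), with a 95% interval of -1.44 to -0.02 (exact permutation test, two-sided, p = 0.0397, where 5 against 5 lines allow no p below 0.00794). The adjusted p over all genes tested (limma, Benjamini-Hochberg) was 0.987, so Prdm14 was not called. LPD line 20 set much of the size: without it the log2 fold change was -0.37. At an unadjusted limma p under 0.05 Prdm14 was still counted without LPD line 20, but not without LPD line 40 or NPD lines 15, 21 or 36, nor when limma was run without a trend. With LPD line 4 and NPD line 15 both left out, the log2 fold change was -0.72 and this count was lost too. The 9 fibroblast markers tested had a median log2 fold change of -0.93. It was 0.03 over the 7 still tested without NPD line 15, and -1.52 over the 9 without LPD line 6. The log2 fold change of Prdm14 was -0.65 without NPD line 15 and -0.89 without LPD line 6. The part of fibroblast RNA in the Prdm14 values was not tested.

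Dppa3, a maternal-effect factor that protects methylated DNA in the early embryo (ENSMUSG00000046323, chromosome 6, 122626410 to 122630272), lies 77216 bases from Nanog. It had 80.6, 129, 154, 50.6 and 91.7 units in the LPD lines and 131, 379, 129, 77.6 and 64.5 in the NPD lines. LPD line 20 was again the lowest and NPD line 15 by far the highest, a 7.49-fold span. The means were 101 ± 40.6 (SD, n = 5) in LPD lines against 156 ± 128 (SD, n = 5) in NPD lines, with a log2 fold change of -0.42 (SE 0.44; p = 0.476 by exact permutation). With NPD line 15 left out, the log2 fold change was -0.02.

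Of the 10 genes, 0 passed an adjusted p under 0.1 (limma), as did 0.0% of the 14354 genes tested. Prdm14, lower in LPD, was the 1 member at an unadjusted p under 0.05, beside a background of 2.18% of genes lower and 2.84% higher in LPD, or 5.02% in either direction. No member separated the diets without overlap, which 1.02% of genes tested did. In all, 3 members had a log2 fold change above 0 and 7 below it, with a median of -0.06, against 0.00 over all genes tested. The adjusted p-values of the 10 (limma, Benjamini-Hochberg) lay between 0.987 and 0.997. A p that misses the threshold does not show equal levels, and the intervals give the differences these lines still allow.

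**Figure D2:**
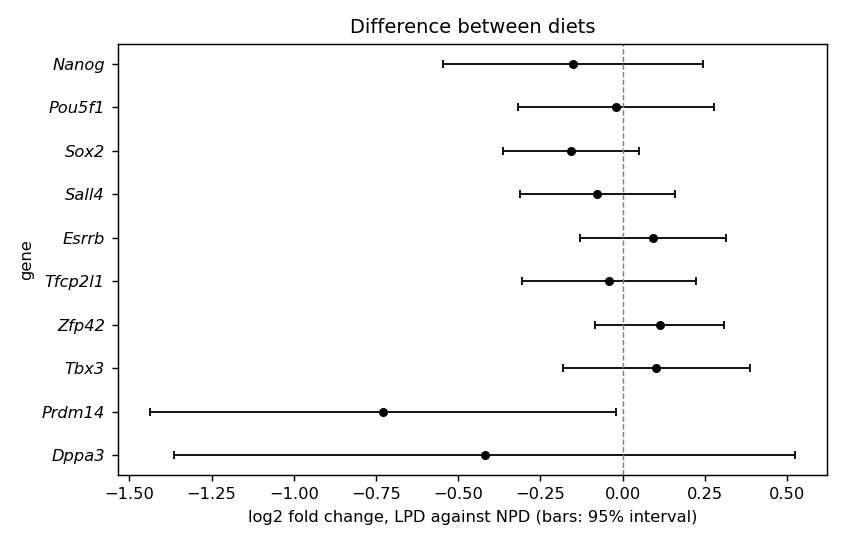
Log2 fold change of LPD against NPD for each gene (x axis) with its 95% interval from limma over 5 and 5 lines. The intervals of 9 genes contain 0, and that of Prdm14 ends at -0.02.

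Levels were then compared between the genes per kb of the longest protein-coding transcript, as means over all 10 lines. Pou5f1 led with 17652 units per kb, followed by Sox2 (4318 units per kb), Nanog (3725), Esrrb (2483), Sall4 (1069), Zfp42 (912), Tbx3 (558), Tfcp2l1 (529), Dppa3 (154) and Prdm14 (104). By these means the core trio stood above the naive factors, and Dppa3 and Prdm14 stood lowest. Ranges over lines did not overlap between Pou5f1 and Sox2, between Esrrb and Sall4, or between Zfp42 and Tbx3. The other neighbours overlapped, and Tbx3 exceeded Tfcp2l1 in 6 of 10 lines. With the mean length of the coding transcripts in place of the longest, the order was the same, although the levels of Pou5f1, Esrrb and Sall4 became 32510.5, 3723 and 2167 units per kb.

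**Figure D3:**
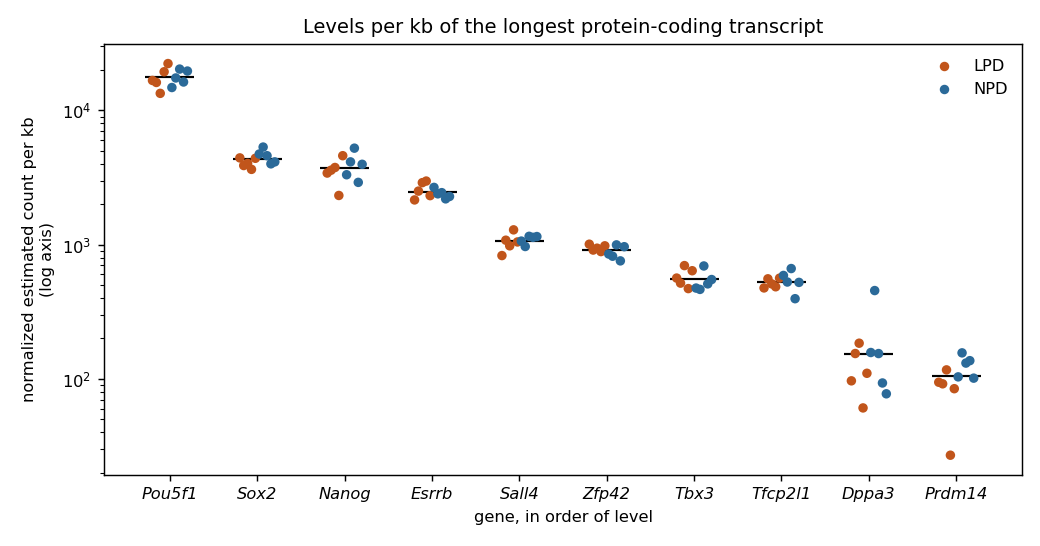
Level of each gene in normalized units per kb of its longest protein-coding transcript (log axis), 1 point per line, LPD orange and NPD blue, with a horizontal line at the mean of 10 lines. Pou5f1 lies apart at 17652 units per kb, and Dppa3 and Prdm14 lie at 154 and 104.

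The members differed widely in how much they varied among lines of the same diet. The pooled within-diet SD on the log2 scale was 0.82 for Dppa3 and 0.62 for Prdm14, larger than in 98.2% and 96.4% of the 10455 genes whose mean reached 100 units. Nanog followed with 0.34, above 80.4% of those genes. Zfp42 (0.13), Sox2 (0.14) and Esrrb (0.16) varied less than most genes, and the median of the 10 members was 0.22 against 0.21 over those genes. Within single diets, the SD of Prdm14 was 0.83 in LPD lines, with LPD line 20 far below, and 0.27 in NPD lines. In NPD lines Nanog (0.32) and Tfcp2l1 (0.28) exceeded Prdm14. For Dppa3 the SD was 0.62 in LPD lines and 0.99 in NPD lines, with NPD line 15 far above. Dppa3 and Prdm14 are also the members with the fewest reads, although Prdm14 in LPD line 20 rested on 91.5 read equivalents and in NPD line 15 on 528.

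The lines had profiles of their own. LPD line 20 was the lowest of the 10 lines for Nanog, Sox2, Prdm14 and Dppa3 and the highest for Sall4 and Esrrb, so the genes did not move as a block. Its deviations from the 10-line median (log2) were -1.91 for Prdm14, -1.09 for Dppa3, -0.66 for Nanog and -0.23 for Sox2, against 0.27 for Sall4, 0.30 for Esrrb and 0.18 for Pou5f1. NPD line 15 showed the highest Sox2, Prdm14 and Dppa3 and the lowest Tbx3. NPD line 21 lay above the median for 10 of 10 genes, with the highest Nanog and Tfcp2l1 and a median deviation of 0.25. NPD line 36 was below the median for 8 of 10, with the lowest Tfcp2l1 and Zfp42.

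**Figure D4:**
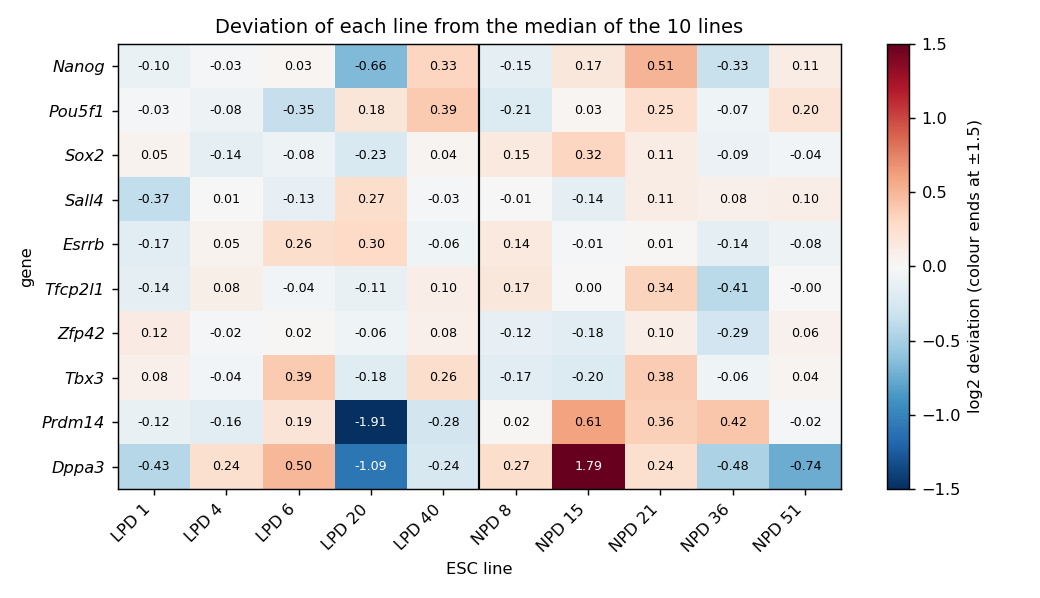
Log2 deviation of each of the 10 ESC lines (x axis) from the median of all lines for each gene (y axis), with the number in each cell and colours ending at 1.5 in either direction. LPD line 20 is lowest for Prdm14 (-1.91) and Dppa3 (-1.09) but highest for Esrrb (0.30), and NPD line 15 is highest for Dppa3 (1.79).

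Over the 10 lines, 45 pairs of members were correlated on the log2 scale, 26 positively and 19 negatively. At an unadjusted permutation p under 0.05 there were 4 pairs, and 0 after Benjamini-Hochberg adjustment over the 45, where the smallest adjusted p was 0.468. Zfp42 and Tbx3 had r = 0.67 (permutation p = 0.0336) and rho = 0.76 (permutation p = 0.0149), and r = 0.71 without NPD lines 15 and 36. Nanog and Tfcp2l1 had r = 0.68 (permutation p = 0.0352) and rho = 0.62 (permutation p = 0.0604), and r = 0.61 without LPD line 20 and NPD line 21. Nanog and Tbx3 had r = 0.64 (permutation p = 0.0457) and rho = 0.50 (permutation p = 0.143), which fell to r = 0.36 without the same lines. Sox2 and Dppa3 had r = 0.74 (permutation p = 0.0155) and rho = 0.55 (permutation p = 0.105), but r = 0.11 without LPD line 20 and NPD line 15, so this relation rests on those lines. The lines named were the 2 farthest from the median for the first gene of each pair only. With them left out, Zfp42 and Tbx3 was the 1 pair of the 4 still under 0.05 (exact permutation p = 0.0481, 8 lines). For that pair LPD line 6 and NPD line 21, the farthest for Tbx3, were kept, so its result depends on that choice. After the mean of each diet was removed, 8 pairs were under 0.05, the 4 above among them. None passed Benjamini-Hochberg adjustment over the 45, where the smallest adjusted p was 0.231. Of the pairs added, Sox2 with Sall4 and Sall4 with Prdm14 were negative, at r = -0.73 each. The permutations made no allowance for the removed means, so these p-values can run too small.

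Pou5f1 is the factor whose motif lies in the windows of Nanog, Sox2 and Zfp42 printed above. Its r over the 10 lines was 0.32 with Nanog (permutation p = 0.378; rho = 0.53), 0.04 with Sox2 (permutation p = 0.910; rho = 0.14) and 0.36 with Zfp42 (permutation p = 0.311; rho = 0.43). None of these passed.

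For each member, the non-member genes most like it over the 10 lines were sought among 10326 genes that had a symbol in the annotation and a mean of 100 units or more, as a description without a test. Pou5f1 was followed most closely by Snrpb (r = 0.98), Cmss1 (r = 0.98) and Psma7 (r = 0.96), Nanog by Bet1 (r = 0.94), Ifitm2 (r = 0.94) and Trpm4 (r = 0.93), and Sall4 by Psmd2 (r = 0.97). The nearest gene was Senp1 for Esrrb (r = 0.97), Tor1a for Tbx3 (r = 0.97), Ndn for Sox2 (r = 0.95), Gm6361 for Prdm14 (r = 0.93), Med31 for Zfp42 (r = 0.91), Arhgef5 for Dppa3 (r = 0.91) and Arl15 for Tfcp2l1 (r = 0.88). Jam2, a marker of the naive state, came second for Tbx3 (r = 0.94). X-linked genes came second for Sox2 (Mpp1, r = 0.94) and for Dppa3 (Ocrl, r = 0.91), and Sox2 and Dppa3 were themselves highest in NPD line 15.

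Among 25 other naive network genes, all tested, 1 was higher and 1 lower in LPD at an unadjusted p under 0.05, beside the background of 2.84% and 2.18%, and 0 passed adjustment. Klf5, a Krüppel-like factor of the network, had 5664, 6688, 7097, 7415 and 4679 units in the LPD lines and 3839, 4166, 4795, 4406 and 4772 in the NPD lines. Only LPD line 40 lay within the NPD range, and the log2 fold change was 0.51 (SE 0.12; exact permutation test, p = 0.0238; adjusted limma p = 0.451). Without LPD line 40 Klf5 was under an adjusted p of 0.1 (limma), with a log2 fold change of 0.61. It was 1 of 40 genes called in that fit, of 14384 tested. The paper, which tested transcripts and not gene totals, listed a Klf5 transcript as higher in LPD at a false discovery rate under 0.1. Tet2, an enzyme that oxidizes methylcytosine, was at 1571 ± 86.4 (SD, n = 5) in LPD lines against 1799 ± 173 (SD, n = 5) in NPD lines, with a log2 fold change of -0.19 (exact permutation test, p = 0.0476). Klf2 and Klf4, other naive Krüppel-like factors, were lowest in LPD line 20, as Nanog and Prdm14 were, at 985 and 3665 units. The list's median log2 fold change was -0.01, against 0.00 over all genes tested.

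The LIF input showed 0 of 8 genes at an unadjusted p under 0.05 and a median log2 fold change of 0.14. Stat3 was the nearest, at 2116 ± 276 (SD, n = 5) in LPD lines against 1806 ± 244 (SD, n = 5) in NPD lines (log2 fold change 0.23; exact permutation test, p = 0.0952). Of 11 repressors of the network and factors of the exit from pluripotency, 0 reached that threshold, and Tcf7l1, the repressor of Nanog and Esrrb, had a log2 fold change of -0.09 (exact permutation test, p = 0.563).

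In the FGF and ERK arm, 4 of 11 genes were higher and 0 lower in LPD at an unadjusted p under 0.05, beside the background of 2.84% higher, and 0 passed adjustment. Spry4 and Spry2 are feedback inhibitors induced by ERK, and Dusp6 and Dusp4 are phosphatases that inactivate ERK. By immunoblot, the paper reported lower ERK phosphorylation in LPD lines at similar total ERK, and RNA levels do not measure that activity. Spry4 had 2124, 3794, 3447, 5159 and 2090.4 units in the LPD lines and 1869, 1338, 1632, 1715 and 2505 in the NPD lines, with a log2 fold change of 0.82 (SE 0.24; exact permutation test, p = 0.0317; adjusted limma p = 0.665). Dusp4 had 791, 761.4, 900.5, 1868 and 809.9 units in the LPD lines and 761, 345, 493, 704 and 753 in the NPD lines, with a log2 fold change of 0.72 (SE 0.27; exact permutation test, p = 0.00794, the smallest that 5 against 5 lines allow). Every LPD line of Dusp4 lay above every NPD line, by the margin of LPD line 4 (761.4 units) over NPD line 8 (761.0). Of all genes tested, 1.02% separated the diets in either direction, and the adjusted limma p of Dusp4 was 0.899. Dusp6 (log2 fold change 0.79) and Spry2 (0.32) had exact permutation p-values of 0.0714 and 0.0556. LPD line 20, with the lowest Nanog and Prdm14, had the highest Spry4, Spry2, Dusp6 and Dusp4, and the 11 genes had a median deviation of 0.67 in it and of -0.37 in NPD line 15. NPD line 15 was the lowest of the 10 lines for all 4 genes. Without it 3 of the 4 were still under 0.05, with log2 fold changes of 0.72 for Spry4, 0.65 for Dusp6 and 0.26 for Spry2 (Dusp4, 0.53, was not), and without LPD line 4 as well 2 were, Spry4 (0.65) and Dusp4 (0.61). Without LPD line 20 the 4 stayed under 0.05, with Dusp4 at 0.48, and the median of the 11 genes was 0.08 in place of 0.22.

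Of the lists for neighbouring cell states, formative and primed epiblast genes had a log2 fold change below 0 in 11 of 11 genes tested, against 49.5% of all genes tested, with a median of -0.27. Without NPD line 36, the highest line for this list, it was 8 of 11 with a median of -0.11, and without NPD line 15 it was 10 of 11 with -0.25. NPD line 21 (median deviation -0.41) lay nearly as low as LPD line 6 (-0.44). At an unadjusted p under 0.05, 2 of them were lower and 0 higher, beside the background of 2.18% lower, and 0 were lower without NPD line 15 or without NPD line 36. Otx2, a factor of the formative state, was at 211 ± 98.5 (SD, n = 5) in LPD lines against 373 ± 140 (SD, n = 5) in NPD lines, with a log2 fold change of -0.85 (exact permutation test, p = 0.0714). Sall2 was the other (log2 fold change -0.79; exact permutation test, p = 0.0714). Primitive endoderm genes did not differ in a common direction once NPD line 15 was left out: the log2 fold change was above 0 in 10 of 10 with a median of 0.51 over all lines, but in 4 of 10 with a median of -0.09 without that line, and 0 were under 0.05 in either. Their summed level ranged from 2634 to 17823 units in LPD lines and from 1798 to 15617 in NPD lines, lowest in NPD line 15, where Foxa2 was listed at 0 and Sox17 was 11.6.

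In trophectoderm markers 1 of 9 tested genes, Ascl2, was lower at an unadjusted p under 0.05 and 0 were higher (background 2.18% and 2.84%), and Ascl2 was not under it without NPD line 15. Of 8 genes of the two-cell-like state, 0 reached it. Among 9 germ line genes, 1 was lower, Kit (log2 fold change -0.38; exact permutation test, p = 0.0397; adjusted limma p = 0.860), and 1 higher, Sycp3 (0.44; exact permutation test, p = 0.0714; adjusted limma p = 0.982), beside the same background. Of the fibroblast markers 0 of 9 reached it, with 8 of 9 below 0, against 49.5% of all genes tested, and a median of -0.93. Without LPD line 6, 4 of the 9 were lower under it, beside 774 of 14346 genes in either direction. Without NPD line 15, 0 of 7 were, 3 of the 7 lay below 0 and the median was 0.03. Lum and Prrx1, at 111 and 127 units in NPD line 15, passed the filter only through that line. None of 5 reference genes reached it (Sdha, Tbp and, for the Tuba-1 named in the study's qRT-PCR, Tuba1a, Tuba1b and Tuba1c), with a median log2 fold change of -0.03. The 12 non-member ESC markers gave 0, with a median of 0.01.

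**Figure D5:**
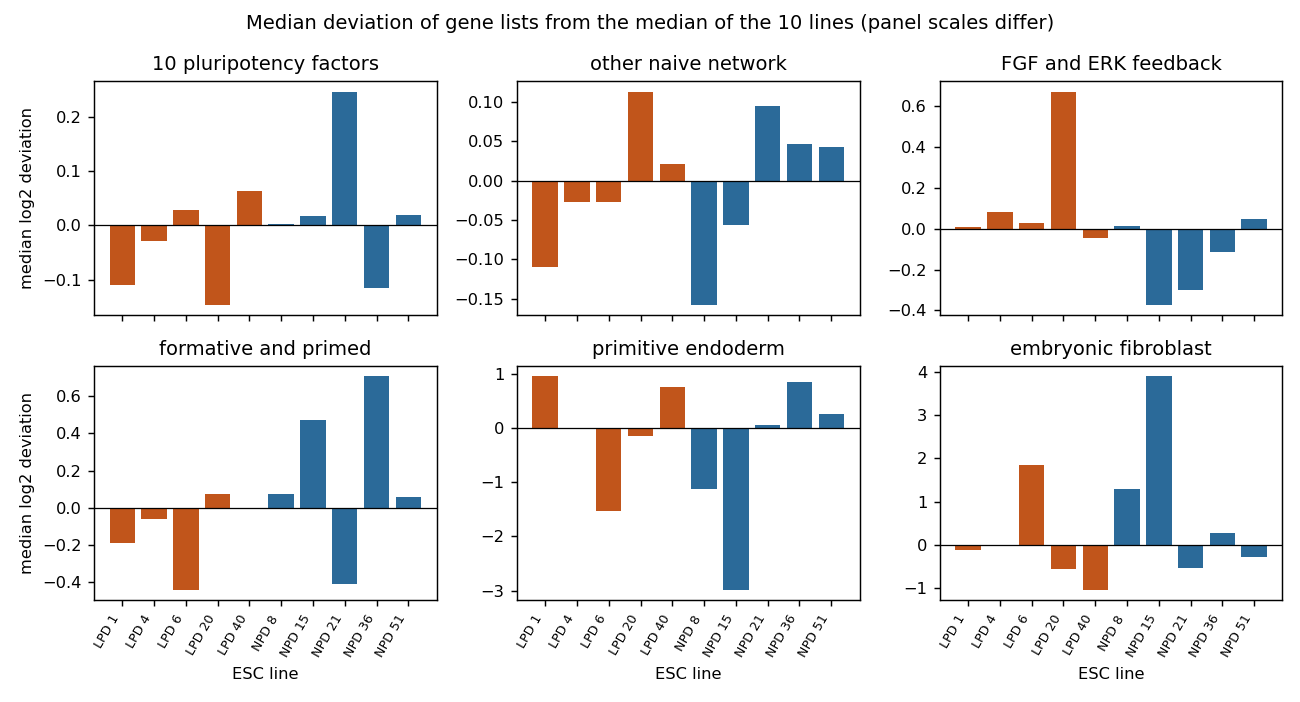
Median log2 deviation from the 10-line median (y axis, scales differ between panels) for each ESC line (x axis), for the 10 pluripotency factors and 5 other gene lists, LPD orange and NPD blue. LPD line 20 stands highest for FGF and ERK feedback genes (0.67), and NPD line 15 is lowest for primitive endoderm genes (-2.98) and highest for fibroblast markers (3.89).

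NPD line 15, with the highest Sox2, Prdm14 and Dppa3, also had the highest fibroblast markers of any line (median deviation 3.89, Lum 111 units against 0 to 1.4 elsewhere). It had the lowest primitive endoderm markers (-2.98) and the lowest values of all 4 Y-linked genes. The part of these traits in its high values was not tested. LPD line 6 and NPD line 8 came next in fibroblast markers, with median deviations of 1.85 and 1.28. Their Dppa3 values, 154 and 131 units, were the next highest after NPD line 15. LPD line 4 (-0.03) and NPD line 21 (-0.52) had nearly as much Dppa3, 129 units each, and NPD line 36 (0.27) had 77.6. Whether Dppa3 goes with fibroblast markers was not tested. LPD line 20, with the lowest Nanog, Prdm14 and Dppa3, had fibroblast markers below the 10-line median (-0.55) and Ddx3y at 1376 units.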

How the data were processed

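RNA was sequenced from 10 mouse ESC lines, 5 LPD and 5 NPD, and grouped by the submitters' titles. According to the paper and the submitters' processing notes, the authors trimmed adaptors with cutadapt and estimated transcript abundance with Salmon on GRCm38 (mm10), and sleuth 0.30.0 was used for their tests. The deposited table holds a normalized signal per gene and line, which its name gives as an estimated count after DESeq2 normalization, and how transcripts were summed to genes is not given in the sources used here. The normalization sets lines to a common scale, so that levels are relative to the other genes of a line. No more than 73.7% of low values in any line were multiples of 1 read (tolerance 0.15), so no count model was used. The value of 1 read came from 4295 genes with 1 annotated transcript. Genes were matched to GENCODE M21 (19918 of 20206), and 0 columns were without a line.

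Values were transformed as log2(value + 1), which understates the change of low genes, and genes whose mean reached 10 (14354) entered a fit with limma 3.58.1 (R 4.3.3, diet as the 1 factor, trended variance, Benjamini-Hochberg adjustment). Single genes were also tested by exact two-sided permutation of the mean log2 values over 252 assignments, and correlations with 100000 permutations. The other steps used Python 3.11.15 (scipy 1.17.1, numpy 2.4.6, matplotlib 3.10.9, pandas 2.3.3). Text names all 10 members, the nearest genes by Pearson r, up to 4 genes of smallest p from each list, and Y-linked genes as a check. Klf2, Klf4, Lum, Col1a1 and other list genes named for single lines were picked after their values were seen. The lists were naive network, LIF and Stat3, repressors, FGF and ERK, qRT-PCR references and markers of 8 cell types or states, Y-linked genes included. The members and lists were chosen with earlier results of these data known. The alternatives were other pseudocounts, filters, scalings and limma settings, each line left out, and 2 lines left out together. For the correlations, the settings with lines left out, other than the 2 farthest lines, were chosen after seeing the data.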

Additional observations from a re-analysis of the deposited data

Results flagged for a closer look

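Dppa3 in NPD line 15 stood apart from the other lines of its diet. Its value was 379 units, against 64.5 to 131 in the other 4 NPD lines, and the gap to the nearest of them was 0.789 of the group's whole range, above Dixon's critical value of 0.710 for 5 lines. It was the 1 case among 20 groups checked (10 genes in 2 diets), where chance alone marks about 1 in 20. The check was made on units, and the case marked depends on that scale. By log2 deviation, which was not checked this way, Dppa3 in NPD line 15 was at 1.79, against -0.74 to 0.27 in the other NPD lines. Prdm14 in LPD line 20 was at -1.91, against -0.28 to 0.19 in the other LPD lines. Fibroblast markers were highest and Y-linked values lowest in the same line, and their part in the value was not tested.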

How the results depend on the processing

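No paired analysis was possible because the line numbers are not shared between the diets. At an adjusted p under 0.1, limma called 0 of all genes tested, 1 with array weights and between 0 and 40 when single lines were left out. The 40 were called without LPD line 40, and none of the 10 members was called at that threshold. At an unadjusted p under 0.05, 1 member (Prdm14) was counted, 0 without a trend in limma, 0 with LPD line 4 and NPD line 15 both left out, and 0 to 1 with each line left out (0 without LPD line 40 or NPD lines 15, 21 or 36). The lost p-values of Prdm14 in those fits lay between 0.0535 and 0.0916 (limma, unadjusted), and its log2 fold change with each line left out lay between -0.89 and -0.37. Under single left-out lines, the log2 fold change of Pou5f1 ran from -0.11 to 0.0733 and turned positive without LPD line 4 (0.01), LPD line 6 (0.0733), NPD line 21 (0.03) or NPD line 51 (0.02). With LPD line 4 and NPD line 15 both left out it was 0.00314. That of Sall4 ran from -0.16 to 0.00269 (without LPD line 1) and that of Tfcp2l1 from -0.15 to 0.0377 (without NPD line 21). The cause was not tested. Rescaling to the same total or quantile normalization turned no member's sign. Of 45 pairs of members, 4 were correlated at an unadjusted p under 0.05, 8 after removal of the diet means, 1 with LPD line 4 and NPD line 15 both left out, and 1 to 6 with each line left out. The gene lists with lines left out were computed after seeing the data. The mean length of the coding transcripts moved the level of Pou5f1 to 32510.5, of Esrrb to 3723 and of Sall4 to 2167 units per kb.

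Limits: with 5 lines a group, 95% intervals of the members' log2 fold changes spanned from about 0.39 (Zfp42) to 1.89 (Dppa3). LPD line 4, at 5855259 read equivalents, is the least precise for Prdm14 (81.9 read equivalents) and Dppa3 (44.8). These floors cover counting error only.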

Other observations

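Egr1, an immediate early gene induced by ERK and a member of the FGF and ERK list, had 16051 units in LPD line 1 and 15175 in LPD line 4, against 118 to 2188 in the other 8 lines. Its mean was 6555 ± 8278 (SD, n = 5) in LPD lines against 754 ± 864 (SD, n = 5) in NPD lines, and the diets overlapped (log2 fold change 2.04, SE 1.22; exact permutation test, p = 0.238). In those lines Nanog, at 7550.3 and 7929 units, and Pou5f1, at 22773 and 21999.9, lay near the middle of the 10 lines. Egr1 was picked after its values were seen.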
